A study of Mus musculus with 22 samples.

Results

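The 9 genes of retinoid uptake, binding, synthesis and clearance described here were measured in the choroid plexus (ChP), the epithelium and vascular stroma that secretes cerebrospinal fluid (CSF), out of 33984 genes counted in the files. They are the retinol receptor *Stra6*, the carriers *Rbp4* and *Crabp2*, the retinol dehydrogenases *Rdh5* and *Rdh10*, the retinaldehyde dehydrogenases *Aldh1a1*, *Aldh1a2* and *Aldh1a3*, and the retinoic acid hydroxylase *Cyp26b1*. They were chosen by name for their place in the pathway, and the values of a gene are those of 1 transcript, the one with the largest sum of counts.

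RNA was sequenced from 14 pools of mice, 2 pools (A and B) in each of 7 groups. In the conditional model, of strain S129, all mice carried *Otx2* lox/lox alleles and were 3 months old when Cre-Tat, a recombinase protein that enters cells, or vehicle was injected into the lateral ventricles. ChP of the lateral ventricles (LV) and of the fourth ventricle (4V) was dissected separately 15 days later, with 5 mice to a Cre-Tat pool and 4 to a vehicle pool. In the constitutive model, of strain B6D2, 4V ChP was taken from pools labelled WT (from 5 wildtype littermates), Otx2 (+/-) (from 4 mice that the study names *Otx2* +/GFP), also 3 months old, and Otx2 (+/AA), an allele that the sources used here do not describe. The injected protein is not restricted to one cell type by a promoter, the constitutive allele is carried in every cell, and the models also differ in strain and sequencing run.

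Retinol travels in blood and CSF bound to RBP4, which itself binds transthyretin, and STRA6 is a membrane receptor through which cells take retinol from RBP4. RDH10 oxidises retinol to retinaldehyde, enzymes of the ALDH1A family turn retinaldehyde into retinoic acid, CRABP2 carries retinoic acid to its nuclear receptors, and CYP26B1 inactivates it. RDH5 is best known for oxidising 11-cis-retinol in the visual cycle. The ChP and the meninges are known sites of retinoid handling in the brain.

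Pools held 22750019 to 50088408 counts, of which mitochondrially encoded genes took 20.7 to 32.7% of the counts on genes. *Otx2* itself was counted over its whole transcript, which does not check the labels, since the study followed the knockdown in reads on 1 exon that is not analysed separately here. The whole transcript was higher in the mutant and treated labels. Its counts-per-million (CPM) level, scaled by TMM factors that correct for composition, was 1024 to 1235 in the pools labelled Cre-Tat against 385 to 469 in those labelled vehicle. In the constitutive model it was 1027 and 885 CPM in the pools labelled Otx2 (+/-) against 361 and 303 in WT. Groups are therefore called by their labels, and every direction given here is between labels. For 14 of 16 conditional files, the deposited attachment to a sample disagrees with the library number that the name carries. The number was followed, since both files of a number differed by no more than sampling noise, whereas files attached to 1 sample differed by far more.

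The loci of the genes that turned out abundant are given on GRCm38 with the GENCODE vM21 annotation. *Stra6* (ENSMUSG00000032327) spans chr9:58063788-58153996 on the plus strand and is represented by transcript Stra6-214, with 19 exons. *Rdh5* (ENSMUSG00000025350) spans chr10:128913593-128922888 on the minus strand, with Rdh5-201 of 5 exons, and *Rdh10* (ENSMUSG00000025921) spans chr1:16105774-16133734 on the plus strand, with Rdh10-201 of 6 exons. The 250 bases before the start of the counted transcript are shown for *Stra6* and *Rdh5*, the members that were both lower in 4V ChP of both models. They are RefSeq windows of GRCm38.p6, at chr9:58133825-58134074 (plus strand) and chr10:128919298-128919547 (minus strand). Both lie within the annotated span of their gene, upstream of the counted transcript, and are printed 5′ to 3′ in lower case, where capitals would mark a match to a searched motif.
Stra6: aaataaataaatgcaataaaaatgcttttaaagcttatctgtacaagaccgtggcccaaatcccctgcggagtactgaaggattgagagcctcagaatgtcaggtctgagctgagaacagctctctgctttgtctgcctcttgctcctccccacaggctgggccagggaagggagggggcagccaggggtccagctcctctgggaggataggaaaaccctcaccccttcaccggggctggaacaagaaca
Rdh5: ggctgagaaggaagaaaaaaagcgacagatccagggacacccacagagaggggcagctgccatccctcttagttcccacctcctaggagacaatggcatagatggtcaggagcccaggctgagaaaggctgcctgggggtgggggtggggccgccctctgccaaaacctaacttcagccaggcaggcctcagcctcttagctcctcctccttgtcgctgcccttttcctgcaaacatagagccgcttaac
The motifs were TAATCC, the core bound by OTX2 and its relatives, and AGGTCA, a half-site of retinoic acid receptors, each read on both strands. Neither run of letters occurs in these windows, nor in the 1 window read for each of the other 4 members that the RefSeq table holds (*Rbp4*, *Aldh1a1*, *Aldh1a2* and *Cyp26b1*). RefSeq has 4 windows for *Stra6* and 2 each for *Rbp4* and *Aldh1a1*, and their further windows are not described here. Of all 32851 promoter windows of this length, 6.25% hold TAATCC and 14.02% hold AGGTCA. *Crabp2*, *Rdh10* and *Aldh1a3* were not searched.

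The 9 genes fell into 3 abundant members and 6 that were barely detected. *Rdh5*, *Stra6* and *Rdh10* had 469 to 2741 counts in every pool, whereas the other 6 members had 2 to 190. Per length, in CPM per kilobase of transcript (CPM per kb), *Rdh5* led in all 7 groups. In the vehicle 4V pools its level was 94.8 ± 19.1 CPM per kb (SD, n = 2), above 99.0% of all genes, followed by *Stra6* with 31.4 ± 4.64 and *Rdh10* with 13.0 ± 1.35. The pools of these neighbours did not overlap in vehicle 4V ChP. *Stra6* stood above *Rdh10* in the vehicle and WT groups of both ventricles and models. In the pools labelled Cre-Tat the order was the opposite, with *Rdh10* at 21.8 ± 2.20 and *Stra6* at 11.7 ± 1.78 CPM per kb in LV ChP. In 4V ChP they were at 19.7 ± 2.20 and 15.2 ± 0.508 CPM per kb. In the Otx2 (+/-) pools the values of *Stra6* (9.40 and 10.7) and *Rdh10* (9.45 and 9.05) overlapped. With transcripts summed, *Stra6* stood above *Rdh10* with the Cre-Tat label as well, but this sum is not an even measure between genes. It can count a shared read more than once, runs over 14 transcripts of *Stra6* and 2 of *Rdh10*, and is divided by the length of 1 transcript. The counted transcript held 18.6% of the summed counts for *Stra6* and 64.8% for *Rdh10*. The means were 61.25 against 33.68 CPM per kb in LV and 81.88 against 29.77 in 4V ChP, and 54.36 against 14.44 in the Otx2 (+/-) pools. *Rbp4* was next in vehicle 4V ChP at 2.08 ± 0.129 CPM per kb, and *Aldh1a3* was last in every group, at 0.0832 ± 0.00398 there. Several low members could not be ordered, because the pools of *Aldh1a2*, *Aldh1a1* and *Cyp26b1* overlapped.

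**Figure D1:**
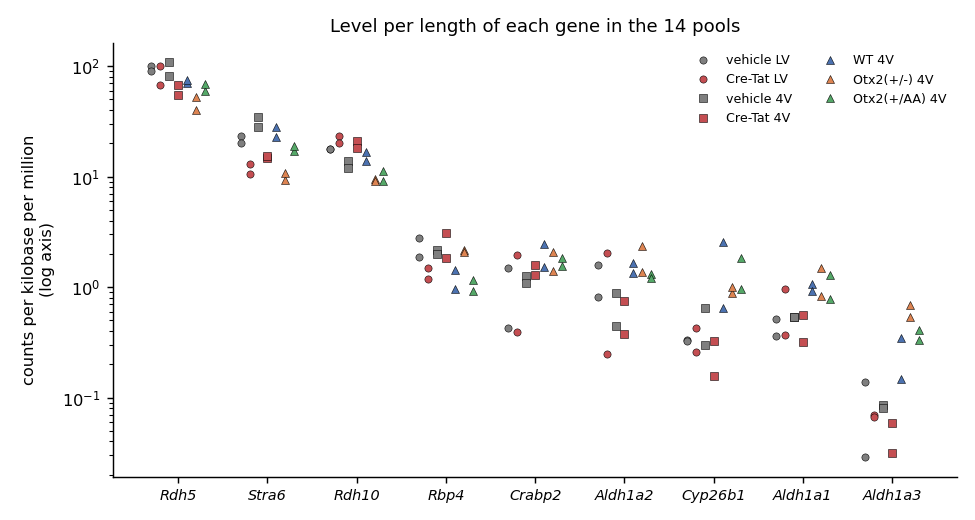
Level of each gene per length (CPM per kilobase of transcript, log axis) in all 14 pools, with 1 symbol per pool and colour and shape by group. *Rdh5*, *Stra6* and *Rdh10* lie well above the other 6 genes in every group, and *Aldh1a3* is last.

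*Stra6*, the route of retinol entry, was called lower in 3 of the 4 comparisons of a label with its control, more than any other member. In LV ChP the pools labelled Cre-Tat had 32.2 and 40.0 CPM, and those labelled vehicle had 71.2 and 61.9. All values of the Cre-Tat label lay below all values of the vehicle label. The fitted log2 fold change was −0.88 (SE 0.17), a level 45.7% lower, with an adjusted p of 0.0115 in edgeR's quasi-likelihood test. *Stra6* was the member called lower among the 8 tested in LV ChP, and none was called higher. Of all genes tested there, 1.03% were called lower and 2.21% higher. Without vehicle LV pool A the call was lost (−0.78, adjusted p = 0.0898), as it was with total counts in place of TMM factors (−0.72, adjusted p = 0.0582).

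In 4V ChP, *Stra6* was at 45.5 and 47.7 CPM with the Cre-Tat label and at 107 and 86.4 with the vehicle label. The pools did not overlap, and the difference was 2.07-fold, with a log2 fold change of −1.05 (SE 0.14, adjusted p = 9.28e-05). In the constitutive model it was at 28.9 and 33.0 CPM in the Otx2 (+/-) pools and at 70.3 and 87.3 in the WT pools. This was the largest difference of any member in the 6 pairwise comparisons, 2.54-fold, with a log2 fold change of −1.35 (SE 0.14, adjusted p = 0.00181). Both 4V calls held when any 1 pool was left out and in all 8 alternative settings tried in both models. With files grouped by the sample they are attached to, which mixes Cre-Tat and vehicle libraries in each group, the conditional value was −0.28. The Otx2 (+/AA) pools, at 52.3 and 58.3 CPM, lay between the Otx2 (+/-) and the WT pools without overlap. Their difference from WT, −0.52 (SE 0.14), had an adjusted p of 0.173 and was not called. The WT pools serve both comparisons, and whether both genotypes differ from each other was not tested.

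The size of the *Stra6* change did not pass a test of difference between ventricles or models. The response to the Cre-Tat label in 4V minus that in LV ChP was −0.17 (SE 0.22, adjusted p = 1.00), and the response in the conditional minus that in the constitutive model was 0.29 (SE 0.21, adjusted p = 0.598), both in edgeR's quasi-likelihood test. All 14 *Stra6* transcripts in the files had a lower mean in the pools labelled Cre-Tat and Otx2 (+/-), but they share exons and reads and are not independent. Their log2 ratios ranged from −1.26 to −1.04 in 4V ChP of the conditional model and from −1.71 to −1.09 in the constitutive model.

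Markers of the ChP epithelium, in part or all of the list, were called lower in the same label comparisons as *Stra6*. Of 8 epithelial markers, *Ttr*, *Folr1*, *Kl*, *Clic6*, *Kcnj13*, *Enpp2*, *Aqp1* and *Sostdc1*, 4 were called lower with the Cre-Tat label in LV ChP, 8 in 4V ChP and 2 in the Otx2 (+/-) pools, and none higher. Of all genes tested in these comparisons, 1.03%, 4.98% and 1.75% were called lower and 2.21%, 5.70% and 1.78% higher. The median log2 fold change of the 8 markers was −0.64, −0.95 and −0.40, against −0.88, −1.05 and −1.35 for *Stra6*. In the Otx2 (+/-) pools *Clic6* (0.05), *Sostdc1* (−0.09) and *Enpp2* (−0.12) changed little. Between ventricles of vehicle pools, where *Stra6* was lower in LV ChP (−0.54), the markers had a median of 0.18 and none was called. Their summed level was 96867 and 85099 CPM in the Cre-Tat 4V pools, 215974 and 182047 in the vehicle 4V pools, 123355 and 131509 in the Otx2 (+/-) pools and 197235 and 186868 in WT. Most of each sum was *Ttr*, at 73806 and 61087 CPM in the Cre-Tat 4V pools and 168105 and 138659 in the vehicle 4V pools. It was at 76376 and 89850 CPM in the Otx2 (+/-) pools and 147756 and 139043 in WT. The sums thus follow *Ttr* more than the other markers. Macrophage markers moved the other way, with 2 of 6 called higher in LV and 5 of 6 in 4V ChP of the conditional model. In its 4V pools they summed to 111 and 79.0 CPM against 47.2 and 46.5. In the Otx2 (+/-) pools 1 of 6 was called higher (*Mrc1*, 0.64), with sums of 89.9 and 101 CPM against 75.3 and 80.7 in WT. Of 4 astrocyte markers, 2 were called higher and 1 lower with the Cre-Tat label in each ventricle. Only *Aqp4* of them was called in the Otx2 (+/-) pools, and it was higher. In the Otx2 (+/-) pools, 2 of 9 fibroblast markers (*Col1a2* and *Col3a1*) were called higher, with a median of 0.48 over the list. Their sums were 1743 and 1563 CPM against 1359 and 1226 in WT, without overlap. With the Cre-Tat label, 1 of 9 was called higher and 1 lower in each ventricle. The sums were lower there without overlap, at 1112 and 1265 CPM against 1397 and 1438 in LV ChP. In 4V ChP they were 1108 and 1138 against 1283 and 1249. The mitochondrial share was also higher in the Cre-Tat 4V pools (29.7 and 27.6%) than in the vehicle 4V pools (24.2 and 22.1%), and in the Otx2 (+/-) pools (28.1 and 27.7%) than in WT (24.5 and 22.4%). Over the 14 pools, after each run's mean was subtracted on the log2 scale, *Stra6* had r = 0.69 with the epithelial sum and −0.77 with the macrophage sum. These are descriptions over pools that share treatments and runs. The part of the marker and mitochondrial shifts in the level of *Stra6* was not tested. In bulk ChP fewer cells of a type and less RNA per cell cannot be told apart.

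**Figure D2:**
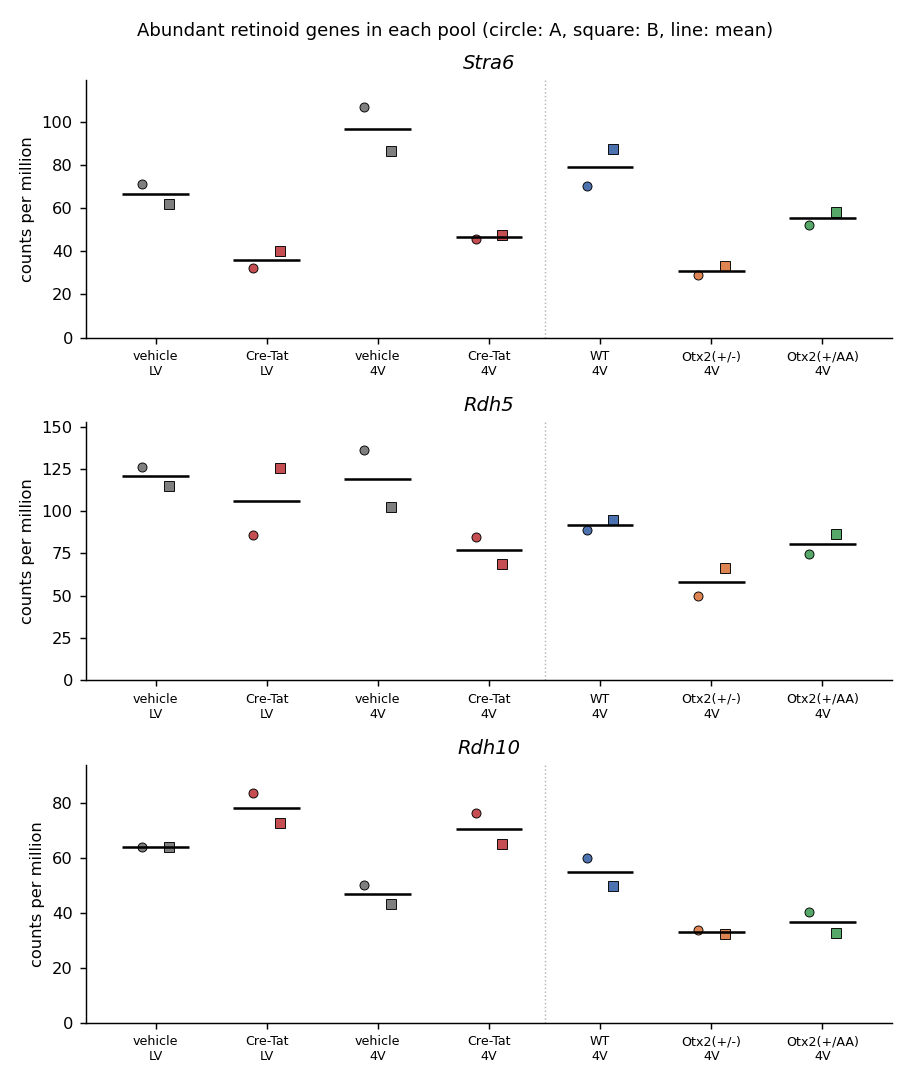
Level of *Stra6*, *Rdh5* and *Rdh10* (CPM, axes from 0) in each pool by group label, with circles for pool A, squares for pool B and a line at the mean of both. *Stra6* is lower in each pool labelled Cre-Tat or Otx2 (+/-) than in its controls, and *Rdh10* is higher in the Cre-Tat 4V pools but lower in the Otx2 (+/-) pools.

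*Rdh5* was lower in 4V ChP of both models. With the Cre-Tat label it was at 85.0 and 69.0 CPM in 4V ChP, against 136 and 102 with the vehicle label. These pools did not overlap, and the log2 fold change was −0.63 (SE 0.16, adjusted p = 0.0145). Without vehicle 4V pool A, which held the highest value, it was −0.39, and with all groups of the run in 1 fit the adjusted p was 0.0599. Files grouped by the sample they are attached to, which mixes Cre-Tat and vehicle libraries in each group, gave 0.58. The Otx2 (+/-) pools were at 50.0 and 66.7 CPM and the WT pools at 89.1 and 94.7, again without overlap. The change, −0.65 (SE 0.15), was 1.57-fold and lay at the threshold, with an adjusted p of 0.0497. It was called in 4 of 8 alternative settings, and not without Otx2 (+/-) pool A (−0.47, adjusted p = 0.114).

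In LV ChP the *Rdh5* pools overlapped, with 85.8 and 126 CPM for the Cre-Tat label and 126 and 115 for the vehicle label, and the change of −0.19 (SE 0.19, adjusted p = 0.783) was not called. The response in 4V minus that in LV ChP was −0.44 (SE 0.27, adjusted p = 1.00), so a difference between ventricles did not pass the test. The Otx2 (+/AA) pools, at 74.6 and 86.6 CPM, differed from WT by −0.20 (SE 0.13, adjusted p = 0.774). Across all 14 pools, *Rdh5* varied with the epithelial marker sum, which is mostly *Ttr* (r = 0.86 after each run's mean was subtracted on the log2 scale). This r is a description over pools that share treatments and runs.

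*Rdh5* shares part of an exon on the same strand with *Bloc1s1*, a lysosome-trafficking gene with a read-through transcript into *Rdh5*, and the counting could assign the same reads to both. *Bloc1s1* was the gene whose level was most like that of *Rdh5*, with r = 0.98. A retained-intron transcript of *Rdh5* that has no base in common with *Bloc1s1* had log2 ratios of −0.51 in 4V ChP of the conditional model and −0.56 in the constitutive model. These are ratios of means without a test. The part of reads from *Bloc1s1* or the read-through transcript in the *Rdh5* changes was not tested.

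*Rdh10*, the enzyme of the first oxidation of retinol, changed in opposite directions in the models. With the Cre-Tat label it was at 76.2 and 65.0 CPM in 4V ChP and with the vehicle label at 50.1 and 43.3. All values of the Cre-Tat label were above those of the vehicle label. It was 1.51-fold higher, with a log2 fold change of 0.60 (SE 0.14, adjusted p = 0.0105), although without vehicle 4V pool B the call was lost (0.49, adjusted p = 0.137). *Rdh10* was thus the member called higher in 4V ChP, and *Stra6* and *Rdh5* were those called lower, among 8 tested. Of all genes tested, 5.70% were called higher and 4.98% lower.

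The Otx2 (+/-) pools held *Rdh10* at 33.9 and 32.5 CPM and the WT pools at 59.8 and 49.7. The Otx2 (+/-) pools lay below the WT pools, with a log2 fold change of −0.72 (SE 0.13, adjusted p = 0.0202) that was called in all 4 fits with 1 pool left out. *Stra6*, *Rdh5* and *Rdh10* were the members called lower among 9 tested in this comparison, and none was called higher, where 1.75% of all genes tested were called lower and 1.78% higher. The Otx2 (+/AA) pools, at 40.4 and 32.8 CPM, were also below WT, by 0.59 on the log2 scale (SE 0.15), with an adjusted p of 0.140. No member was called between the Otx2 (+/AA) and WT pools by edgeR or DESeq2, and 2 of 9 had an unadjusted p under 0.05. Of all genes tested there, 0.172% were called higher and 0.172% lower. Without WT pool B, 2 members were called, *Rdh10* among them (−0.71, adjusted p = 0.0218), in a fit that called 382 of 15059 genes against 50 of 14494 with all pools. Without the filter on low counts, *Stra6* (adjusted p = 0.0293) and *Rdh10* (adjusted p = 0.00861) were called.

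The difference between both 4V responses of *Rdh10* was 1.30 on the log2 scale (SE 0.20, adjusted p = 0.00497), tested as an interaction of label and model over 8 pools. It was the single member called of 9 tested, where 1.64% of all genes tested were called. The interaction kept its sign in all 8 fits with 1 pool left out (1.18 to 1.44). It was called in all 8 alternative settings that follow the library numbers, in which the value ranged from 1.29 to 1.42. Strain, sequencing run, route and time of the *Otx2* change all differ between the models and cannot be told apart. In LV ChP, *Rdh10* was at 83.8 and 72.6 CPM with the Cre-Tat label and 63.9 in both vehicle pools, a change of 0.29 (SE 0.16, adjusted p = 0.457) that was not called although the pools did not overlap. Both *Rdh10* transcripts in the files moved as the gene did in 4V ChP of both models. Over the 14 pools its r with the epithelial marker sum, mostly *Ttr*, was −0.10, again a description.

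**Figure D3:**
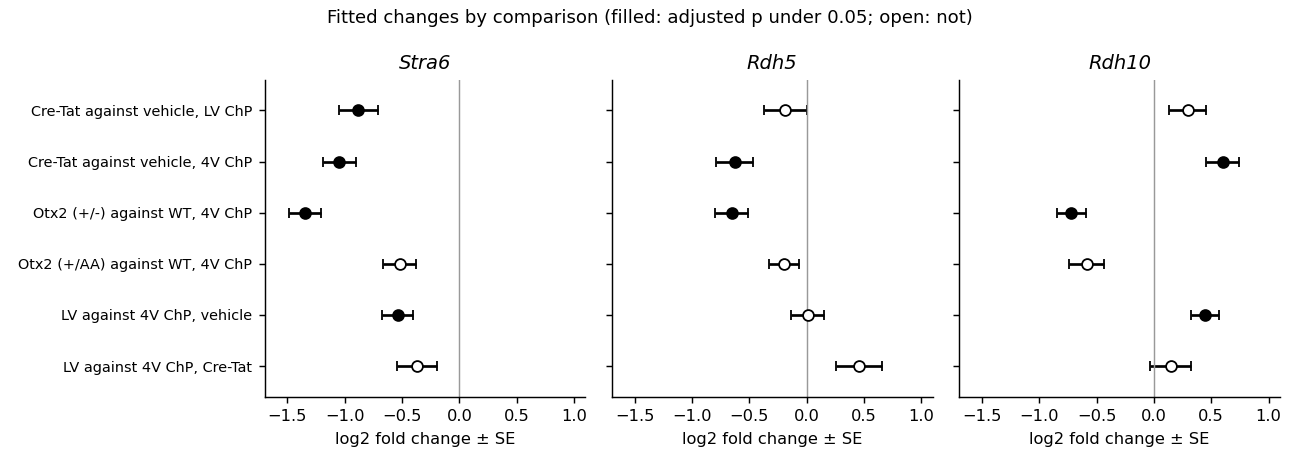
Fitted log2 fold changes of *Stra6*, *Rdh5* and *Rdh10* (x axis) in the 6 pairwise comparisons (y axis), with bars of 1 SE and filled points where the adjusted p was under 0.05. *Stra6* is left of 0 in all 6 comparisons, and *Rdh10* lies right of 0 for the Cre-Tat label in 4V ChP (0.60) and left of 0 for Otx2 (+/-) (−0.72).

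The low members were not called in any pairwise comparison. Over 32 tests of these 6 genes in the 6 comparisons, the lowest adjusted p was 0.163, and 3 tests had an unadjusted p under 0.05. DESeq2 called none of them either. Their SE had a median of 0.45 on the log2 scale, against 0.14 for the abundant members, so that changes of the size seen for *Rdh5* could not be told from the error of these fits. *Rbp4*, which carries retinol in the circulation, was at 2.52 and 2.41 CPM in the Otx2 (+/-) pools and 1.67 and 1.13 in the WT pools. The pools did not overlap, and the difference was 0.82 (SE 0.33, adjusted p = 0.237). In LV ChP the sign was the opposite, with 1.73 and 1.38 CPM for the Cre-Tat label against 3.20 and 2.19 for the vehicle label (−0.79, SE 0.37, adjusted p = 0.358). In 4V ChP of the conditional model the *Rbp4* pools overlapped. *Crabp2*, the carrier of retinoic acid, ranged from 0.361 to 1.83 CPM in the conditional model and from 1.31 to 2.30 in the constitutive model, and had adjusted p-values from 0.793 to 0.943 over the 6 comparisons.

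Among the enzymes that make retinoic acid, *Aldh1a3* differed most between the Otx2 (+/-) and WT pools. Its counts were 47 and 36 in the Otx2 (+/-) pools and 23 and 9 in the WT pools, or 2.37 and 1.85 against 1.20 and 0.506 CPM. The log2 fold change of 1.29 (SE 0.44) had an adjusted p of 0.163, and without WT pool A it was 2.05 (adjusted p = 0.0220). The fibroblast markers named above were higher in the same pools, and over the 14 pools their sum had r = 0.61 with *Aldh1a3* and 0.56 with *Rbp4*, as a description. Their part in the levels of these genes was not tested. In the conditional model *Aldh1a3* had 2 to 10 counts a pool and did not pass the filter on low counts. *Aldh1a2*, the main retinaldehyde dehydrogenase of the meninges, differed most between the Cre-Tat LV pools, at 0.562 CPM in A and 4.63 in B. The vehicle LV pools held 3.58 and 1.84, so the groups overlapped, and the fitted change of −0.08 (SE 0.62) became −2.25 (adjusted p = 0.0398) without Cre-Tat LV pool B. *Crabp2* (9 and 40 counts) and *Aldh1a1* (19 and 43 counts) were also higher in Cre-Tat LV pool B than in pool A. Haemoglobin markers summed to 6.88 CPM in pool B against 0.0803 in pool A, and fibroblast markers to 1265 against 1112. Epithelial markers summed to 162591 against 121496 and astrocyte markers to 110 against 90.2, whereas the sums of the other marker lists were lower in pool B. The fibroblast sums of the vehicle LV pools were higher still, at 1397 and 1438 CPM. The part of these markers in the spread was not tested.

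*Cyp26b1*, which clears retinoic acid, was uneven among the WT pools, with 2.71 CPM in A and 10.7 in B. The Otx2 (+/-) pools, at 3.68 and 4.16, lay between them, and the change of −0.76 (SE 0.51, adjusted p = 0.487) turned on which WT pool was kept. It was −1.45 (adjusted p = 6.38e-06) without WT pool A and 0.53 without WT pool B. The constitutive pools held more of *Aldh1a3* and *Cyp26b1* than any conditional pool. *Aldh1a3* ranged from 0.506 to 2.37 CPM against 0.0994 to 0.477, and *Cyp26b1* from 2.71 to 10.7 against 0.651 to 2.68. The runs were normalized together here, but strain, run and RNA input cannot be told apart from the model, and no test was made.

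**Figure D4:**
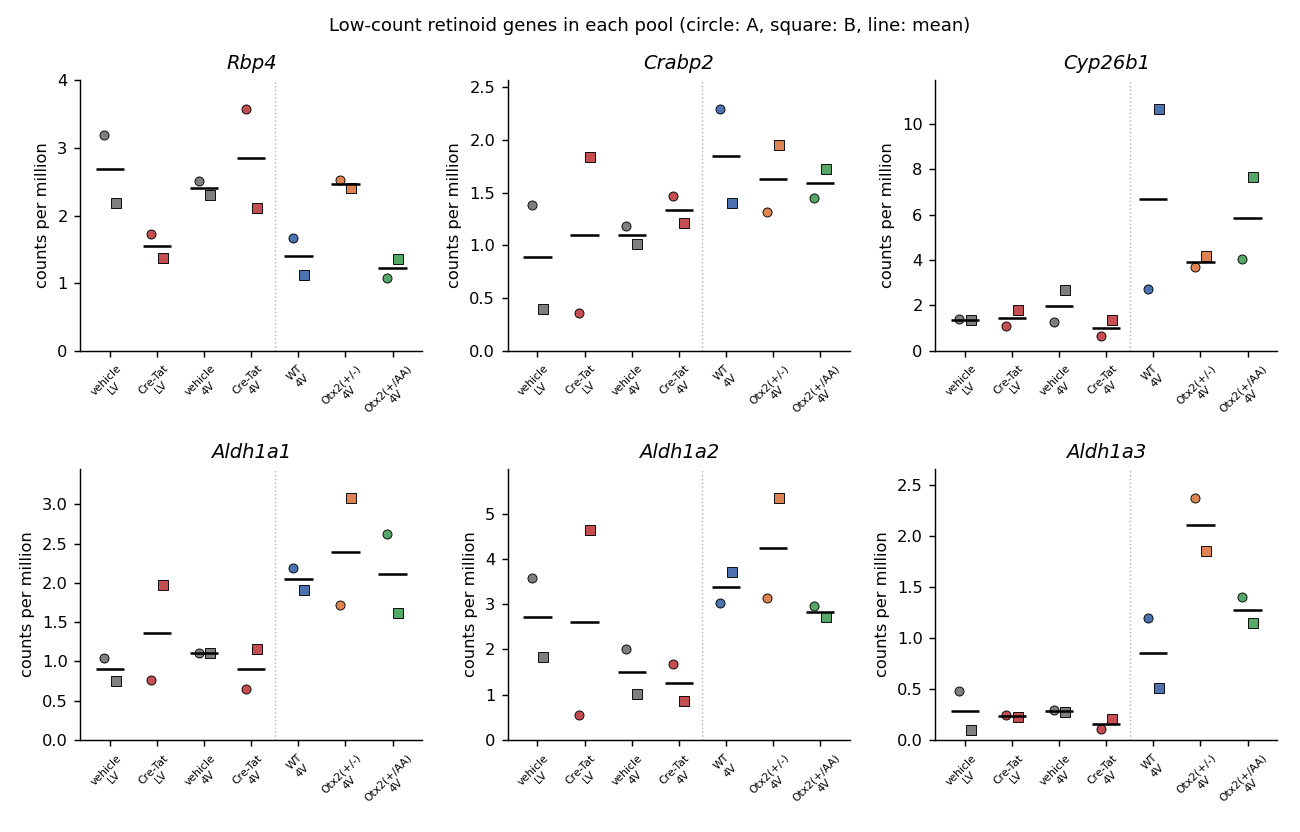
Level of the 6 low-count genes (CPM, axes from 0) in each pool by group label, with circles for pool A, squares for pool B and a line at the mean of both. Pools of 1 group often differ as much as groups do, as for *Aldh1a2* in Cre-Tat LV (0.562 and 4.63) and *Cyp26b1* in WT (2.71 and 10.7).

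Between ventricles, *Stra6* was lower and *Rdh10* higher in LV than in 4V ChP of the vehicle pools. Both ventricles were dissected from the injected mice, so the pools of a label share animals, but which LV and 4V pools share them is not given, and the fits treat them as independent. *Stra6* differed by −0.54 (SE 0.14, adjusted p = 0.0314), which is 31.2% lower in LV ChP, and *Rdh10* by 0.45 (SE 0.12, adjusted p = 0.0441), which is 36.3% higher. Their pools did not overlap. These were 1 member lower and 1 higher of 8 tested, where 3.98% of all genes tested were called lower and 3.46% higher. Both calls lay near the threshold. With files grouped by the sample they are attached to, both sides held 4V libraries of both labels, and the *Stra6* value was 0.23. *Stra6* was lost without vehicle 4V pool A (−0.37, adjusted p = 0.222) or vehicle LV pool B (−0.42, adjusted p = 0.145), and *Rdh10* was lost in each of the 4 fits with 1 pool left out (adjusted p from 0.0580 to 0.308) and by DESeq2 (adjusted p = 0.0752). *Rdh5*, with 126 and 115 CPM in LV and 136 and 102 in 4V ChP, differed by 0.01 (SE 0.14). In the same vehicle pools 3 of 6 endothelial markers were called higher in LV ChP and 0 lower, with a median of 0.56. They summed to 189 and 215 CPM in LV against 124 and 137 in 4V ChP. The part of such marker shifts in the differences between ventricles was not tested.

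In the pools labelled Cre-Tat, no member was called between ventricles by edgeR or DESeq2, and 2 of 8 had an unadjusted p under 0.05. Of all genes tested, 2.98% were called higher and 2.89% lower in LV ChP. *Stra6* differed by −0.37 (SE 0.18, adjusted p = 0.267) and *Rdh10* by 0.15 (SE 0.18, adjusted p = 0.744). *Rdh5* differed by 0.46 (SE 0.20, adjusted p = 0.218), and by 0.73 (adjusted p = 0.00522) without Cre-Tat LV pool A. *Aldh1a2* differed by 1.02 (SE 0.63, adjusted p = 0.416), by 1.89 (adjusted p = 0.000118) without Cre-Tat LV pool A and by −1.16 without Cre-Tat LV pool B. No member passed the interaction of treatment and ventricle, where 0.00642% of all genes tested did (1 gene), no member had an unadjusted p under 0.05, and DESeq2 called none.

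The rest of the retinoid pathway was read from a list of 44 other genes, of which 26 to 28 passed the filter in each comparison. With the Cre-Tat label in LV ChP, 2 were higher and 1 lower, with a median log2 fold change of 0.08 against 0.00 for all genes. Of all genes tested there, 2.21% were called higher and 1.03% lower. In 4V ChP 3 of the list were higher and 3 lower (median 0.08 against 0.01), where 5.70% and 4.98% of all genes tested were. In the Otx2 (+/-) pools none of the list was higher and 3 were lower (median −0.03 against 0.00), where 1.78% and 1.75% of all genes tested were. Between Otx2 (+/AA) and WT none of 26 was called by edgeR, where *Ttr* had a change of −0.36 (adjusted p = 0.321) and *Dhrs3*, a retinaldehyde reductase, one of −0.44 (adjusted p = 0.277). Between ventricles, 3 of the list were higher and 1 lower in LV ChP for each label. Of all genes tested, 3.46% were called higher and 3.98% lower in vehicle pools, and 2.98% and 2.89% in Cre-Tat pools.

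Among the carriers, *Ttr*, which carries RBP4 and thyroid hormone, fell with the Cre-Tat label in 4V ChP by 1.18 on the log2 scale (SE 0.30, adjusted p = 0.0148). It fell by 0.78 in the Otx2 (+/-) pools (SE 0.17, adjusted p = 0.0395). *Rbp2*, a cellular retinol-binding protein best known from the intestine, was at 5.53 and 6.34 CPM with the Cre-Tat label in 4V ChP and 0.296 and 0.461 with the vehicle label. It rose in both ventricles, by 3.98 (SE 0.40, adjusted p = 3.3e-06) in 4V and 2.10 (SE 0.32, adjusted p = 0.00234) in LV ChP. *Crabp1*, a second retinoic acid carrier, was found in LV ChP, at 4.44 and 4.67 CPM in vehicle pools against 0.148 and 0 in vehicle 4V pools. It fell in LV ChP with the Cre-Tat label, to 1.20 and 1.97 CPM (−1.52, SE 0.33, adjusted p = 0.0205).

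Among the enzymes, *Rdh12*, a retinaldehyde reductase of photoreceptors, was lower in 4V ChP with the Cre-Tat label (−1.05, SE 0.25, adjusted p = 0.00926) and in the Otx2 (+/-) pools (−1.85, SE 0.25, adjusted p = 0.00552). *Rdh11*, a related reductase, was lower with the Cre-Tat label in 4V ChP by 0.56 (adjusted p = 0.0338). Of the visual cycle genes, *Rpe65*, the retinyl ester isomerase, was called higher with the Cre-Tat label in both ventricles, with 30 and 28 counts against 2 and 0 in 4V and 43 and 35 against 8 and 1 in LV ChP. *Lrat*, which stores retinol as esters, had 4 and 0 counts in the Otx2 (+/-) pools and 46 and 31 in WT (adjusted p = 0.0173). In the conditional 4V pools *Lrat* had the other sign, 1.03 (SE 0.33), with an adjusted p of 0.0511 that missed the threshold.

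Of 6 nuclear receptors, 5 were tested in each pairwise comparison, and the single call among them was *Rxra*, higher in LV than in 4V ChP of vehicle pools by 0.46 (SE 0.12, adjusted p = 0.0373). Of 7 known targets of retinoic acid, 3 were tested, and *Tgm2*, a transglutaminase, rose with the Cre-Tat label in 4V ChP by 0.93 (SE 0.18, adjusted p = 0.00256). *Rarb*, the receptor that retinoic acid induces in many tissues, had a change of 0.08 (SE 0.19) there and 0.12 (SE 0.24) in the Otx2 (+/-) pools. Among the uptake genes, *Lrp2*, an endocytic receptor of epithelia, was lower in LV than in 4V ChP, by 1.65 (SE 0.34, adjusted p = 0.0103) in vehicle and 1.68 (SE 0.42, adjusted p = 0.0224) in Cre-Tat pools. *Rlbp1*, which binds 11-cis-retinoids, was higher in LV ChP for both labels (1.11, SE 0.29 and 1.68, SE 0.32), and *Scarb1*, a lipoprotein and carotenoid receptor, was higher for the Cre-Tat label (0.95, SE 0.19).

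The genes whose level followed each member most closely were found by Pearson's r over 14 pools, after each run's mean was subtracted from log2 CPM, among 15893 genes. For *Stra6* they were *Elfn1* (0.97), *Entpd3* (0.96) and *Zfp579* (0.95). For *Rdh5* they were *Bloc1s1* (0.98), *Polr2e* (0.97) and *Ctsf* (0.95), and for *Rdh10* they included *Cinp* (0.83) and *Idnk* (0.83). The values are descriptions over pools that share treatments and runs. *Stra6* and *Rdh5* followed each other with r = 0.72, and *Stra6* and *Rdh10* had r = −0.13.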

How the data were processed

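Choroid plexus RNA of 14 pools was read from the tables of counts per Ensembl transcript that the authors deposited. The study describes PolyA+ libraries, whereas the labels name Ribo-Zero depletion and a stranded ScriptSeq kit. The submitters' processing notes name bcl2fastq 1.8.4, Bowtie 0.12.9, SAMtools, HTSeq 0.5.3, DESeq 1.8.3 and the mm10 build. How reads were shared between overlapping transcripts and the strand setting are not given in the sources used here. Both sequencing runs of a conditional library were summed.

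Of 95533 transcripts, 82807 (89.5% of counts) were matched to GENCODE vM21, and 1 transcript, that with the largest sum of counts, stands for each of 33984 genes. Pairs of groups were compared with edgeR 4.0.16 in R 4.3.3 (filterByExpr, TMM factors, quasi-likelihood test, Benjamini-Hochberg adjustment over all genes tested, called under 0.05), without pairing. DESeq2 1.42.0 was an alternative. The SE of an edgeR change is not a fitted standard error. It was derived as the size of the log2 fold change divided by the square root of the F statistic, and is unreliable for changes near 0. Permutation tests are not given, since the smallest two-sided p that an exact one allows in groups of 2 pools is 0.333. The labels call A and B biological replicates. Conditional duplicates came from separate sets of mice. For constitutive duplicates this is not stated, and p-values there measure the spread between samples that may share mice. Python 3.11.15, pandas 2.3.3 and matplotlib 3.10.9 served for tables and plots, and the fit was tested on simulated data.

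The genes, lists and tests were chosen with earlier results of these data known. Named besides the 9 genes were *Otx2*, pathway genes called in any pairwise comparison, and the 3 genes most like each member. *Rarb* and *Dhrs3*, which the rule does not name, were chosen after their values were seen, and some items that the rule names are not reported here. The other alternatives were DESeq2 size factors, total counts, filters on low counts, a replicate block, 1 fit over all groups of a run, summed transcripts, files as attached, and each pool left out.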

Additional observations from a re-analysis of the deposited data

Results flagged for a closer look

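*Rdh10* was flagged because its response in 4V ChP differed between the models by a test of the difference itself. The response to the Cre-Tat label minus that to the Otx2 (+/-) label was 1.305 on the log2 scale (SE 0.20, adjusted p = 0.00497, edgeR's quasi-likelihood test over 8 pools). Both Cre-Tat pools lay above both vehicle pools, and both Otx2 (+/-) pools lay below both WT pools. Leaving out each of the 8 pools in turn gave 1.18 to 1.44. With 2 pools in each group, such a fit leaves 1 pool in a group and cannot tell which pool is an outlier.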

How the results depend on the processing

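The fits were repeated with each choice changed in turn. Grouping files by the sample they are attached to joins, by library number, a Cre-Tat and a vehicle library in every conditional group. The fits with this grouping therefore compare other mixtures of libraries and do not measure the changes that their labels name. They gave the opposite sign for *Rdh5* under the Cre-Tat label in 4V ChP (0.58) and between ventricles in Cre-Tat pools (−0.21). The same held for *Stra6* between ventricles in vehicle pools (0.23) and for *Aldh1a2* in LV ChP (0.10). It also held for the interactions of treatment and ventricle of *Stra6* (0.24) and *Rdh5* (0.61). It gave 2 members called in LV and 5 between ventricles of vehicle pools, 3 between ventricles of Cre-Tat pools, 3 for treatment and ventricle, and 4 for the difference between models. It also raised the genes called with the Cre-Tat label from 486 to 6709 in LV and from 1554 to 8742 in 4V ChP, between ventricles from 1083 to 4718 (vehicle) and from 887 to 4809 (Cre-Tat), for treatment and ventricle from 1 to 5258 and for the models from 252 to 4688.

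Total counts in place of TMM factors shifted the all-gene median of the log2 fold changes by 0.17 in LV and 0.15 in 4V ChP with the Cre-Tat label, 0.11 for Otx2 (+/AA), −0.19 and −0.17 between ventricles (vehicle and Cre-Tat) and 0.12 for the models. They reversed *Aldh1a2* in LV ChP (0.0568) and the differences between ventricles of *Rdh5* in vehicle pools (−0.17) and *Rdh10* in Cre-Tat pools (−0.0161), and left 0 members called in LV ChP and 1 between ventricles of vehicle pools. The split of higher and lower genes went from 331 and 155 to 396 and 48 in LV, from 829 and 725 to 1316 and 426 in 4V ChP, and from 25 and 25 to 28 and 10 for Otx2 (+/AA). Between ventricles it went from 504 and 579 to 252 and 1222 (vehicle) and from 451 and 436 to 369 and 1164 (Cre-Tat, 1533 in all).

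Between ventricles of vehicle pools, 2 members were called, against 1 by DESeq2, 1 with summed transcripts and 0 with all groups in 1 fit. Between Otx2 (+/AA) and WT, 0 were called, against 2 with no filter on low counts. Leaving out 1 pool gave 0 to 2 members called in LV ChP, 2 to 5 for Otx2 (+/-), 0 to 2 for Otx2 (+/AA), and 0 to 1 (vehicle) and 0 to 2 (Cre-Tat) between ventricles. All genes called in these fits ranged from 321 to 737 in LV and 905 to 1665 in 4V ChP, 402 to 881 for Otx2 (+/-), 35 to 382 for Otx2 (+/AA), 400 to 1968 (vehicle) and 441 to 1504 (Cre-Tat) between ventricles, 0 to 3 for treatment and ventricle and 80 to 246 for the models. It moved *Rdh5* in LV ChP between −0.48 and 0.0746, *Aldh1a2* there between −2.25 and 0.78, *Cyp26b1* for Otx2 (+/-) between −1.45 and 0.53, *Rdh5* between ventricles of vehicle pools between −0.18 and 0.25, and its difference between models between −0.17 and 0.24.

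The pool letters are only names, also for LV and 4V pools that share mice, and deviations of pools with the same letter correlated between −0.14 and 0.35. With a replicate block on the letter, 2 members were called between Otx2 (+/AA) and WT and 4 for Otx2 (+/-), *Aldh1a3* among them (1.33, adjusted p = 0.0101). The block gave 3114 genes in 4V ChP with the Cre-Tat label, 2539 for Otx2 (+/-) against 515 without it, 549 for Otx2 (+/AA) against 50, 2288 between ventricles of vehicle pools, 2 for treatment and ventricle and 1048 for the models.

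Of the other gene counts, no filter gave 874 in LV ChP, 390 for Otx2 (+/AA), 1840 and 1351 between ventricles (vehicle and Cre-Tat), 31 for treatment and ventricle and 627 for the models. DESeq2 gave 122 for Otx2 (+/AA) and 5 for treatment and ventricle. One fit over all groups gave 18 for Otx2 (+/AA) and 717 between ventricles of vehicle pools, summed transcripts gave 22 for Otx2 (+/AA), 166 for the models and 0 for treatment and ventricle, and a mean count above 10 gave 0 for the last. The cause of the shifts with settings other than files as attached was not tested. The 6 low members had 2 to 190 counts in a pool, and counting error and the spread between pools were not separated.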

Other observations

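Among the low members, the closest patterns over 14 pools were those of *Olfml3* (r = 0.85) for *Rbp4*, *Snord17* (0.92) for *Crabp2*, *Rpp21* (0.87) for *Aldh1a1*, *Nnat* (0.91) for *Aldh1a2*, *Bmp4* (0.86) for *Aldh1a3* and *Fto* (0.82) for *Cyp26b1*. These are descriptions over pools that share treatments and runs, and low counts limit each.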
